A study of Mus musculus with 6 samples.

Results

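The insulin-like growth factor (IGF) system was examined in mouse gastrocnemius, a calf muscle that in mice consists mainly of fast fibres. The genes were chosen by name, as 10 rows of a table of 25344 genes: the ligands Igf1 and Igf2, the receptors Igf1r and Igf2r, and the binding protein genes Igfbp2, Igfbp3, Igfbp4, Igfbp5, Igfbp6 and Igfbp7. RNA was sequenced in 3 libraries from muscles of wild-type mice (WT) and in 3 libraries from littermates carrying an NRTN transgene (HSA-NRTN). The transgene places neurturin, a secreted GDNF-family ligand that acts on neurons, under control of the human alpha-skeletal actin promoter, a driver of expression in the fibres of skeletal muscle. Neither group received a treatment. The strain, age and sex of the mice, the number of founder lines and whether a library came from 1 animal were not given in the labels, so a p-value reflects only how far these libraries differ among themselves, which may be technical.

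IGF ligands act on the receptor tyrosine kinase Igf1r, which signals through insulin receptor substrates, phosphoinositide 3-kinase and Akt and is known as a growth and repair signal of muscle. Igf1 is made both by the liver and by muscle itself, where fibres, satellite cells, fibroblasts and macrophages are known sources. Igf2r carries no kinase: it takes up Igf2 protein and sends it to the lysosome. The binding proteins hold IGFs outside the cell, and proteases such as Pappa release them.

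Between 27418154 and 50291845 reads were counted in genes per library. Levels are given as FPKM (reads scaled to gene length and to all reads counted in genes) and log2 changes, HSA-NRTN against WT, on the scale of log2(FPKM + 1), which understates the change of low genes. Nrtn itself was measured at 1.70 to 4.33 FPKM in WT and 169 to 201 FPKM in HSA-NRTN, which matches the labels, and the fibre markers Ckm, Acta1, Ttn, Des and Myh4 summed to 31281 to 35344 FPKM in WT and 18331 to 20528 FPKM in HSA-NRTN. FPKM has no correction for composition. Scaling by the authors' size factors instead, as recovered from their table, shifted HSA-NRTN against WT by -0.30 (log2) and moved the median change over all tested genes (log2) from 0.18 to -0.06. Values per library and shares are given in FPKM, each family gene was tested with either scaling, and a gene is written as having risen or fallen without qualification where limma called it under both.

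Of the 10 genes, 8 averaged 1 FPKM or more in the 6 libraries and were tested, and Igf2 and Igfbp2 did not. With FPKM as deposited, 3 rose (Igf1, Igfbp4 and Igfbp7), 1 fell (Igfbp5) and 4 were not called (limma, Benjamini-Hochberg adjusted p under 0.05 over 10755 genes). In this test 41.6% of all genes were called higher and 11.7% lower, so both counts lie near the background. With the authors' size factors 2 rose (Igf1 and Igfbp7) and 2 fell (Igfbp5 and Igfbp3), where 20.8% of 10726 genes were called higher and 30.1% lower. By the authors' deposited table, 2 of the 10 had an adjusted p under 0.05 and were higher and 2 were lower, against 18.0% and 17.8% of its 18953 genes with an adjusted p. Those were the same genes as with the size factors. Among the 8 tested genes the median change (log2) was 0.26 with FPKM and -0.03 with the size factors.

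The letters upstream of Igfbp5 and Igfbp7 are shown because these abundant binding protein genes moved in opposite directions under both scalings. Each run comes from the 250 bases before the RefSeq start (GRCm38.p6), read 5′ to 3′ on the gene's strand and ended where an exon annotated in GENCODE M21 begins, which left 231 bases for Igfbp5 and all 250 for Igfbp7. Capitals mark matches, on either strand, to the motifs searched, which were the E-box CANNTG, the GC box GGGCGG, the TATA box TATAAA and the AP-1 element TGACTCA. The windows lie at chr1:72874885-72875115 (minus strand) and chr5:77408046-77408295 (minus strand). The window before the RefSeq start of Igf1 lies within annotated exons and is not shown.
Igfbp5: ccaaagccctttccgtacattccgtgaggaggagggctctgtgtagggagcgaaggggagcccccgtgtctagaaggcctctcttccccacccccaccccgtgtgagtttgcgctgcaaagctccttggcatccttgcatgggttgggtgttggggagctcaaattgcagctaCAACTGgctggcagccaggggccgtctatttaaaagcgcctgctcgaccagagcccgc
Igfbp7: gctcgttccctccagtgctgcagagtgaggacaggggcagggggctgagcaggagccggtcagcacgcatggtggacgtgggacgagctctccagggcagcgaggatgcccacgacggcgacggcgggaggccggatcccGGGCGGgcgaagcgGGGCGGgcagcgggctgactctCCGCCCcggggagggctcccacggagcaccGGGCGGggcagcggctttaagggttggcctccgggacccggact

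The Igfbp5 window held 1 E-box match and no match to the other motifs, while the Igfbp7 window held 4 GC box matches and no E-box match. G and C made up 60.6% of the printed Igfbp5 letters and 74.0% of the Igfbp7 letters, against a median of 52.4% over the 250 bases before the start of 32851 promoters. An E-box match was present in 66.2% of these promoters, a GC box in 32.7%, TATAAA in 12.4% and TGACTCA in 4.46%. All 10 genes matched the RefSeq table by symbol, with 14 promoters between them. A match is a run of letters and not a binding site.

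**Figure D1:**
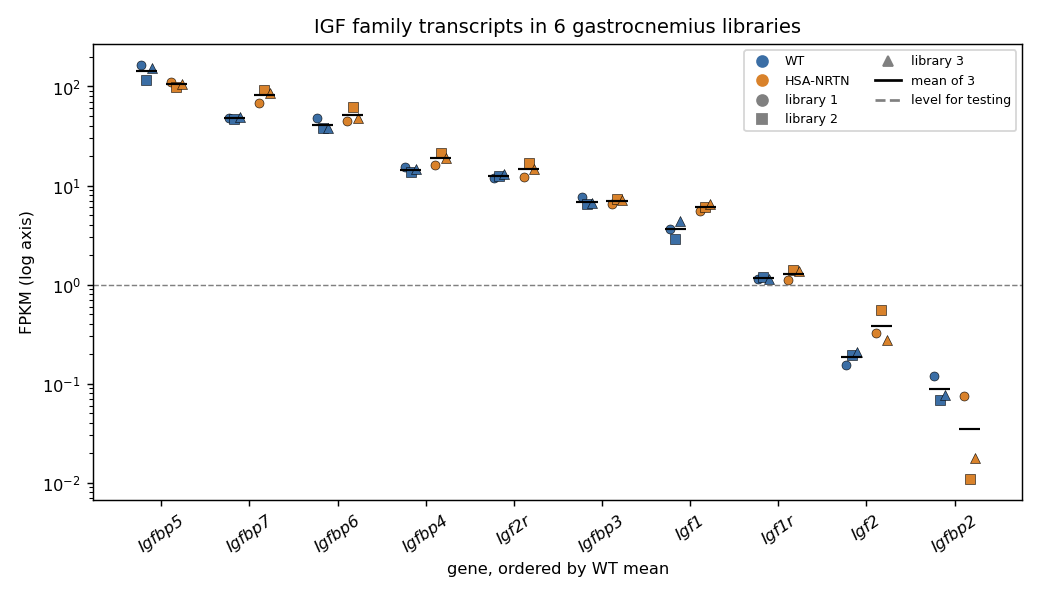
Level of each gene in FPKM (log axis) in the 3 WT (blue) and 3 HSA-NRTN (orange) libraries; symbols mark the library number, black bars the mean of 3, and the dashed line the mean of 1 FPKM needed for testing. Igfbp5 is the most abundant in both groups, and Igf2 and Igfbp2 lie below the line in every library.

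Transcript levels per length spanned a wide range, led by the binding proteins. In WT the order by mean was Igfbp5, Igfbp7, Igfbp6, Igfbp4, Igf2r, Igfbp3, Igf1, Igf1r, Igf2 and Igfbp2, from 145 FPKM down to 0.0880 FPKM. The order of the group means was the same in HSA-NRTN. Neighbours whose libraries overlapped were Igfbp7 and Igfbp6 in WT, and Igfbp4 with Igf2r and Igfbp3 with Igf1 in HSA-NRTN; the other neighbours did not overlap.

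Igf1, the ligand that drives postnatal muscle growth, rose. The gene (ENSMUSG00000020053; GRCm38 chromosome 10, 87858265 to 87937042, plus strand) stood at 3.66, 2.89 and 4.41 FPKM in the WT libraries and at 5.49, 6.05 and 6.53 FPKM in HSA-NRTN, from 902 to 3011 reads per library. Each HSA-NRTN library lay above each WT library. Group means were 3.65 ± 0.761 and 6.02 ± 0.519 FPKM (SD, n = 3), with a ratio of 1.65 and a fitted log2 change of 0.60 ± 0.12 (SE; limma, adjusted p = 0.00404). With the size factors the ratio of means was 1.34 and the log2 change 0.36 ± 0.11 (limma, adjusted p = 0.0273), again without overlap. The authors' deposited table gives a log2 change of 0.42 ± 0.13 (SE) with an adjusted p = 0.00570. The call was kept with each of the 6 libraries left out in turn, with log2 changes from 0.48 to 0.72 (limma, adjusted p from 0.00210 to 0.0177).

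Igf2, the fetal ligand expressed from the paternal chromosome, was low and below the level for testing. The gene (ENSMUSG00000048583; chromosome 7, 142650766 to 142666816, minus strand) was counted in 24, 35 and 42 reads in WT and in 53, 160 and 48 reads in HSA-NRTN. These correspond to 0.153, 0.194 and 0.208 FPKM in WT and to 0.324, 0.556 and 0.274 FPKM in HSA-NRTN. The groups did not overlap, and HSA-NRTN 2 was the highest library. Without the filter on low values the log2 change was 0.22 ± 0.08 (SE; limma, adjusted p = 0.0931), and the authors' deposited table gives 0.76 ± 0.36 (adjusted p = 0.0858), so neither test called it. The exons of Igf2 share 62.8% of their length with the annotated same-strand gene Gm49394, so how reads were assigned there is uncertain. Igf1 made up 91.6% to 96.0% of the summed FPKM of both ligands over the 6 libraries.

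H19, the maternally expressed non-coding RNA of the imprinted domain that also holds Igf2, had a larger log2 change than any of the 8 tested genes. It is no member of the IGF family and belongs to a list of Igf2 locus and Igf2 mRNA-binding genes. H19 stood at 114, 122 and 150.3 FPKM in the WT libraries and at 476, 758 and 632 FPKM in HSA-NRTN. The lowest HSA-NRTN library was above the highest WT library. The mean went from 129 ± 19.2 to 622 ± 141 FPKM (SD, n = 3), for a fitted log2 change of 2.25 ± 0.17 (SE; limma, adjusted p = 3.07e-05), or 1.95 ± 0.16 with the size factors (limma, adjusted p = 4.64e-05). Within a library the ratio of H19 to Igf2 FPKM, which no scaling of the library alters, was 629 to 743 in the WT libraries and 1363 to 2302 in HSA-NRTN. Of the other list genes, Igf2bp1, Igf2bp2, Igf2bp3 and Hmga2 were below the level for testing, each at no more than 0.491 FPKM in any library.

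The receptors were not called in either direction with all 6 libraries, either with FPKM as deposited or with the size factors. Igf1r (ENSMUSG00000005533; chromosome 7, 67952827 to 68233668, plus strand) stood at 1.14, 1.199 and 1.13 FPKM in the WT libraries and at 1.10, 1.39 and 1.36 FPKM in HSA-NRTN. HSA-NRTN 1 was the lowest of the 6 libraries and the other 2 of its group were the highest. The log2 change was 0.08 ± 0.08 (SE; limma, adjusted p = 0.444) and turned to -0.09 ± 0.07 with the size factors (limma, adjusted p = 0.353). Under that scaling each HSA-NRTN library lay below each WT library in Igf1r. With quantile normalization its log2 change was -0.19 ± 0.07 (limma, adjusted p = 0.0529), also not called. Igf2r, also the cation-independent mannose 6-phosphate receptor (ENSMUSG00000023830; chromosome 17, 12682406 to 12769664, minus strand), stood at 11.96, 12.6 and 13.0 FPKM in the WT libraries and at 12.3, 16.9 and 14.7 FPKM in HSA-NRTN. The groups overlapped through HSA-NRTN 1. Its log2 change was 0.20 ± 0.11 (SE; limma, adjusted p = 0.149), or -0.08 ± 0.09 with the size factors (limma, adjusted p = 0.505). Without HSA-NRTN 1, Igf2r was called higher with FPKM (log2 change 0.31; limma, adjusted p = 0.0199), and without HSA-NRTN 2 its log2 change was 0.10 (adjusted p = 0.450). These errors do not show that receptor transcripts were alike in both groups.

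Ratios of genes within 1 library stay the same when all values of that library are multiplied by 1 factor. The ratio of Igf1 to Igf1r FPKM was 3.20, 2.41 and 3.89 in WT and 4.98, 4.36 and 4.81 in HSA-NRTN, with no overlap. This is no separate result, since with the size factors Igf1 was higher and Igf1r lower in every HSA-NRTN library. The ratio of Igf2r to Igf1r was 10.5, 10.5 and 11.5 in WT and 11.1, 12.2 and 10.9 in HSA-NRTN, where the groups overlapped.

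**Figure D2:**
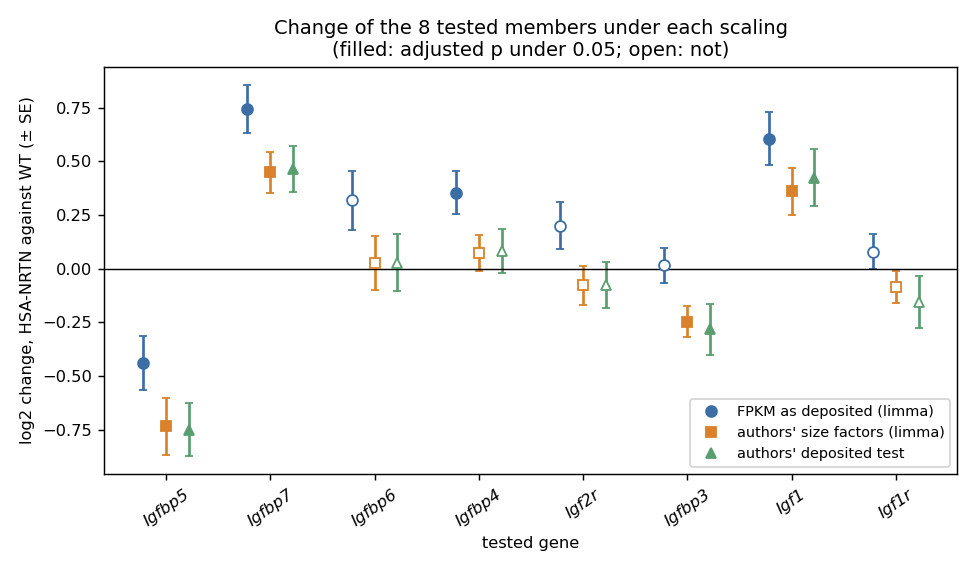
Log2 change (HSA-NRTN against WT, ± SE) of the 8 tested genes with FPKM as deposited (circles), with the authors' size factors (squares) and in the authors' deposited test (triangles); filled symbols have an adjusted p under 0.05. Igfbp7 and Igf1 are filled above 0 and Igfbp5 below 0 in each of the 3, while Igfbp4 is filled with FPKM and Igfbp3 with the size factors and in the authors' test.

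Igfbp5, the most abundant family transcript of this muscle and a binding protein that also attaches to extracellular matrix, fell. The gene (ENSMUSG00000026185; chromosome 1, 72857932 to 72874884, minus strand) stood at 166, 117 and 152 FPKM in the WT libraries and at 112, 98.7 and 106 FPKM in HSA-NRTN, from 19195 to 32169 reads. The groups did not overlap, although WT 2 lay close to HSA-NRTN 1. The mean went from 145 ± 25.4 to 106 ± 6.60 FPKM (SD, n = 3), with a ratio of 0.729 and a fitted log2 change of -0.44 ± 0.13 (SE; limma, adjusted p = 0.0195). With the size factors the ratio was 0.595 and the log2 change -0.73 ± 0.13 (limma, adjusted p = 0.00260), and the authors' deposited table gives -0.75 ± 0.12 (adjusted p = 1.03e-08). With FPKM the call ended without WT 1, WT 3 or HSA-NRTN 2 (limma, adjusted p = 0.0516, 0.0593 and 0.0678), at log2 changes of -0.33, -0.40 and -0.39, and with no filter on low values (-0.44, adjusted p = 0.0572).

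Igfbp7, which binds IGFs weakly, is deposited in vessel walls and is a ligand of the endothelial receptor Cd93, rose. The gene (ENSMUSG00000036256; chromosome 5, 77349240 to 77408041, minus strand) stood at 48.1, 46.5 and 49.4 FPKM in the WT libraries and at 67.3, 91.7 and 86.0 FPKM in HSA-NRTN. The WT libraries were close together and each HSA-NRTN library was higher, HSA-NRTN 1 the least so. The mean went from 48.0 ± 1.46 to 81.7 ± 12.7 FPKM (SD, n = 3), with a ratio of 1.70 and a fitted log2 change of 0.74 ± 0.11 (SE; limma, adjusted p = 0.000940). With the size factors the log2 change was 0.45 ± 0.10 (limma, adjusted p = 0.00555), and the authors' deposited table gives 0.46 ± 0.11 (adjusted p = 9.06e-05). The call was kept with each library left out in turn (log2 changes from 0.65 to 0.87; limma, adjusted p from 0.000200 to 0.00493). Its exons overlap Polr2b, which lies on the other strand, for 7.03% of their length, and the labels do not say whether the counting used strand.

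For Igfbp4, the binding protein cleaved by Pappa, the call rested on the scaling. The gene (ENSMUSG00000017493; chromosome 11, 99041244 to 99054392, plus strand) stood at 15.2, 13.6 and 14.5 FPKM in the WT libraries and at 16.2, 21.2 and 19.02 FPKM in HSA-NRTN. Each HSA-NRTN library was above the WT libraries, and HSA-NRTN 1 by little. The log2 change was 0.35 ± 0.10 (SE; limma, adjusted p = 0.0177) with FPKM and 0.07 ± 0.08 (limma, adjusted p = 0.494) with the size factors, where the groups overlapped. With FPKM the call also ended without WT 2, HSA-NRTN 2 or HSA-NRTN 3 (limma, adjusted p = 0.0609, 0.0607 and 0.0541; log2 change 0.31, 0.27 and 0.34).

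Igfbp3, the main carrier of IGFs in blood, was not called with FPKM and fell with the size factors. The gene (ENSMUSG00000020427; chromosome 11, 7206086 to 7213923, minus strand) stood at 7.60, 6.43 and 6.59 FPKM in the WT libraries and at 6.49, 7.24 and 7.11 FPKM in HSA-NRTN. The groups overlapped, and the highest library was WT 1. The log2 change was 0.02 ± 0.08 (SE; limma, adjusted p = 0.891) with FPKM and -0.25 ± 0.07 with the size factors (limma, adjusted p = 0.0248), where each HSA-NRTN library was below each WT library. The authors' deposited table gives -0.28 ± 0.12 (adjusted p = 0.0483).

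Igfbp6, which binds Igf2 protein in preference to Igf1, was not called. The gene (ENSMUSG00000023046; chromosome 15, 102144362 to 102149511, plus strand) stood at 48.2, 37.8 and 37.8 FPKM in the WT libraries and at 45.2, 61.8 and 48.5 FPKM in HSA-NRTN. The groups overlapped through WT 1 and HSA-NRTN 1. The log2 change was 0.32 ± 0.14 (SE; limma, adjusted p = 0.0794), and 0.03 ± 0.13 with the size factors (limma, adjusted p = 0.875). Without WT 1 or HSA-NRTN 1 it was called higher with FPKM (limma, adjusted p = 0.0273 and 0.0493; log2 change 0.43 and 0.41). Igfbp2 (ENSMUSG00000039323; chromosome 1, 72824503 to 72852474, plus strand), which lies 5457 bases from Igfbp5 with the gene ends facing each other, was counted in 6, 4 and 5 reads in WT and in 4, 1 and 1 reads in HSA-NRTN. At 0.0108 to 0.118 FPKM a difference was not detectable at this depth, and the authors' deposited table gives a log2 change of -1.69 ± 1.19 (adjusted p = 0.289).

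The makeup of the summed level of the 6 binding protein transcripts differed between groups, and whether the sum itself overlapped rested on the scaling. The sum was 285, 221 and 260.3 FPKM in WT and 247, 281 and 267 FPKM in HSA-NRTN, where the groups overlapped. With the size factors it was 315, 250.2 and 284 in WT and 234, 245 and 237 in HSA-NRTN, where every HSA-NRTN library lay below every WT library. Igfbp5 supplied 58.2%, 52.8% and 58.4% of it in WT and 45.2%, 35.2% and 39.8% in HSA-NRTN, with no overlap. Igfbp7 supplied 16.9%, 21.04% and 18.98% in WT and 27.3%, 32.7% and 32.2% in HSA-NRTN. The share of Igfbp6 was 14.5% to 17.1% in the WT libraries and 18.2% to 22.01% in HSA-NRTN, and that of Igfbp4 was 5.34% to 6.14% and 6.56% to 7.56%. Igfbp3 supplied 2.53% to 2.91% over the 6 libraries. Shares must sum to the whole, so a lower share of one gene raises the others.

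The ratio of Igfbp5 to Igfbp7 FPKM within a library was 3.44, 2.51 and 3.08 in WT and 1.66, 1.08 and 1.24 in HSA-NRTN, so both transcripts came close to each other in HSA-NRTN 2. The ratio of Igfbp5 to Igf1 was 45.3, 40.4 and 34.5 in WT and 20.4, 16.3 and 16.3 in HSA-NRTN. The summed binding protein FPKM per Igf1 FPKM was 77.9, 76.5 and 59.0 in WT and 45.0, 46.4 and 40.9 in HSA-NRTN. For each of these ratios every HSA-NRTN library was below every WT library. None changes when all values of a library are multiplied by 1 factor. For all of them this separation follows from the levels given above and is no separate result. For the sum per Igf1 it follows from the levels with the size factors.

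**Figure D3:**
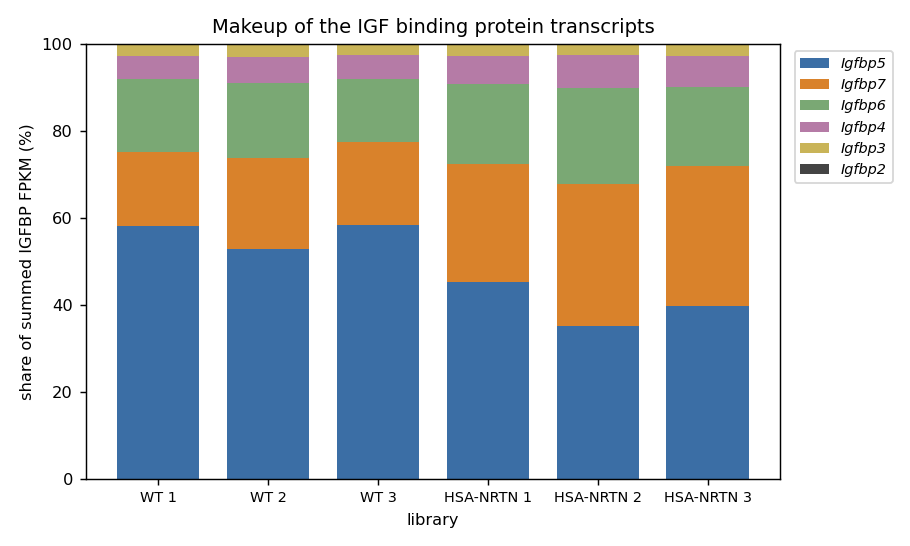
Share of each binding protein gene in the summed FPKM of Igfbp2 to Igfbp7 (%), 1 stacked bar per library. The Igfbp5 share is 52.8% to 58.4% in the WT libraries and 35.2% to 45.2% in HSA-NRTN, and the Igfbp7 share is 16.9% to 21.04% and 27.3% to 32.7%; Igfbp2 is too small to see.

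Genes around the IGF system moved in both directions. Of 52 genes in 6 lists, 50 were in the table and 41 were tested; 12 rose and 6 fell with FPKM (limma), and 9 rose and 17 fell with the size factors. The share called higher was 29.3% with FPKM, below the 41.6% of all genes, and 21.95% with the size factors, beside 20.8%. The share called lower was 14.6% with FPKM, beside 11.7%, and 41.5% with the size factors, above the 30.1% of all genes. Their median change (log2) was 0.12 with FPKM, beside 0.18 over all tested genes, and -0.13 with the size factors, beside -0.06. By the authors' deposited table, 9 were higher and 19 lower of 49 with an adjusted p, which is 18.4% and 38.8%, beside 18.0% and 17.8% of all its genes.

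The growth hormone arm, which controls Igf1 transcription, held changes in both directions. With FPKM 3 of its 6 genes rose and 3 fell, and with the size factors 2 rose and 3 fell. With FPKM that is 50% higher and 50% lower, beside 41.6% and 11.7% of all genes. With the size factors it is 33.3% higher and 50% lower, beside 20.8% and 30.1%. Stat5b, the transcription factor that carries the growth hormone signal to Igf1, stood at 44.0, 50.2 and 42.4 FPKM in the WT libraries and at 20.98, 21.3 and 19.3 FPKM in HSA-NRTN, for a fitted log2 change of -1.11 ± 0.08 (SE; limma, adjusted p = 2.69e-05; -1.40 with the size factors). Jak2, the kinase bound to the growth hormone receptor, went from 17.6 ± 1.17 to 12.1 ± 0.234 FPKM (SD, n = 3; log2 change -0.51 ± 0.07 SE; limma, adjusted p = 0.000643; -0.79 with the size factors). Socs2, a target of the pathway that restrains it, stood at 1.198, 0.679 and 1.10 FPKM in the WT libraries and at 2.72, 2.21 and 2.21 FPKM in HSA-NRTN (log2 change 0.77 ± 0.12 SE; limma, adjusted p = 0.00109; 0.59 with the size factors).

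The other genes of that arm are named because the list is small, a choice made after their values were seen. Ghr, the growth hormone receptor, went from 25.1 ± 0.391 to 20.7 ± 1.21 FPKM (SD, n = 3; log2 change -0.27; limma, adjusted p = 0.0101; -0.56 with the size factors, adjusted p = 0.000505). Stat5a went from 1.86 ± 0.193 to 3.01 ± 0.566 FPKM (log2 change 0.48; limma, adjusted p = 0.00701; 0.27 with the size factors, adjusted p = 0.0449). Cish, a target that also restrains the pathway, stood at 6.38, 0.267 and 1.36 FPKM in the WT libraries and at 10.5, 5.97 and 7.30 FPKM in HSA-NRTN. WT 1 lay within the range of the HSA-NRTN libraries, and the call of Cish (log2 change 1.64; limma, adjusted p = 0.0337) ended with the size factors (1.43; adjusted p = 0.0669).

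Of the carriers and proteases of binding proteins, 7 of 9 genes were in the table and 2 were tested, Htra1 and Igfals. With FPKM 0 were called by limma, and 1 (Htra1, adjusted p = 0.0579) was below 0.05 before adjustment. Htra1, a protease that cleaves Igfbp5 protein, stood at 16.3, 12.1 and 12.5 FPKM in the WT libraries and at 9.26, 11.9 and 10.8 FPKM in HSA-NRTN, and it fell with the size factors (-0.60 on the log2 scale; limma, adjusted p = 0.00339). The other 5 were below the level for testing, Pappa at 0.0728 to 0.160 FPKM. By the authors' deposited table, 3 of these 7 genes had an adjusted p under 0.05, beside 18.0% higher and 17.8% lower of all its genes. The 3 are named for that, after their values were seen. These were Htra1 (log2 change -0.66, adjusted p = 5.15e-06), Stc2, a secreted inhibitor of Pappa protein (-1.003, adjusted p = 0.00214), and Adam12, a metalloprotease known to cleave Igfbp5 protein (1.29, adjusted p = 1.55e-05). Stc2 stood at 0.417 to 0.493 FPKM in the WT libraries and at 0.253 to 0.319 FPKM in HSA-NRTN, and Adam12 at 0.110 to 0.126 and 0.328 to 0.414 FPKM. Among 3 partners of binding proteins Lrp1, a large endocytic receptor that binds Igfbp3 protein, rose from 7.56 ± 1.00 to 14.6 ± 3.34 FPKM (SD, n = 3; log2 change 0.85 ± 0.16 SE; limma, adjusted p = 0.00282; 0.58 with the size factors). Cd93, the receptor of Igfbp7 protein, stood at 8.64, 9.53 and 11.4 FPKM in the WT libraries and at 9.46, 15.1 and 14.6 FPKM in HSA-NRTN, and was not called (log2 change 0.36; limma, adjusted p = 0.109; 0.08 with the size factors, adjusted p = 0.670).

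Of 14 genes next to the receptors, 4 rose and none fell with FPKM (10 not called; limma), and 2 rose and 4 fell with the size factors. The share called higher was 28.6% with FPKM, below the 41.6% of all genes, and 14.3% with the size factors, below 20.8%. The share called lower was 0% with FPKM, beside 11.7%, and 28.6% with the size factors, beside 30.1%. Grb14, an adaptor that inhibits insulin receptor signalling, stood at 3.22, 3.65 and 3.75 FPKM in the WT libraries and at 10.9, 10.6 and 11.6 FPKM in HSA-NRTN, for a fitted log2 change of 1.41 ± 0.08 (SE; limma, adjusted p = 5.83e-06; 1.15 with the size factors). Pik3r1, the main regulatory subunit of phosphoinositide 3-kinase, went from 4.02 ± 0.472 to 7.68 ± 0.222 FPKM (SD, n = 3; log2 change 0.79 ± 0.08 SE; limma, adjusted p = 0.000173; 0.54 with the size factors). Shc1, an adaptor to the Ras branch, went from 4.65 ± 0.0922 to 6.52 ± 0.573 FPKM (limma, adjusted p = 0.00282), and its call ended with the size factors (0.16; adjusted p = 0.0693). The substrates Irs1 (7.79 to 12.4 FPKM over the 6 libraries) and Irs2 (4.19 to 8.36 FPKM) were not called under either scaling.

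Of 15 genes of the Akt and mTOR branch, 3 rose and 3 fell with FPKM, and 3 rose and 9 fell with the size factors. With FPKM that is 20% higher and 20% lower, beside 41.6% and 11.7% of all genes. With the size factors it is 20% higher and 60% lower, beside 20.8% and 30.1%. Akt1, a kinase of growth signalling, stood at 14.0, 12.7 and 14.6 FPKM in the WT libraries and at 20.3, 24.3 and 24.8 FPKM in HSA-NRTN, for a fitted log2 change of 0.71 ± 0.09 (SE; limma, adjusted p = 0.000492; 0.42 with the size factors). Ddit4, a stress-induced inhibitor of mTOR signalling, stood at 4.07, 3.97 and 3.49 FPKM in the WT libraries and at 5.82, 10.1 and 7.57 FPKM in HSA-NRTN (log2 change 0.84 ± 0.16 SE; limma, adjusted p = 0.00292; 0.59 with the size factors). The 3 genes that fell under both scalings are outside the naming rule and are named after their values were seen. Rps6kb1, the kinase of ribosomal protein S6, stood at 6.58, 6.70 and 7.32 FPKM in the WT libraries and at 5.28, 5.22 and 5.12 FPKM in HSA-NRTN (log2 change -0.34; limma, adjusted p = 0.00385; -0.60 with the size factors). Gsk3b, a kinase inhibited by Akt, changed by -0.34 (limma, adjusted p = 0.0128; -0.61 with the size factors), and Rictor, a subunit of mTOR complex 2, by -0.32 (limma, adjusted p = 0.0135; -0.51 with the size factors).

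**Figure D4:**
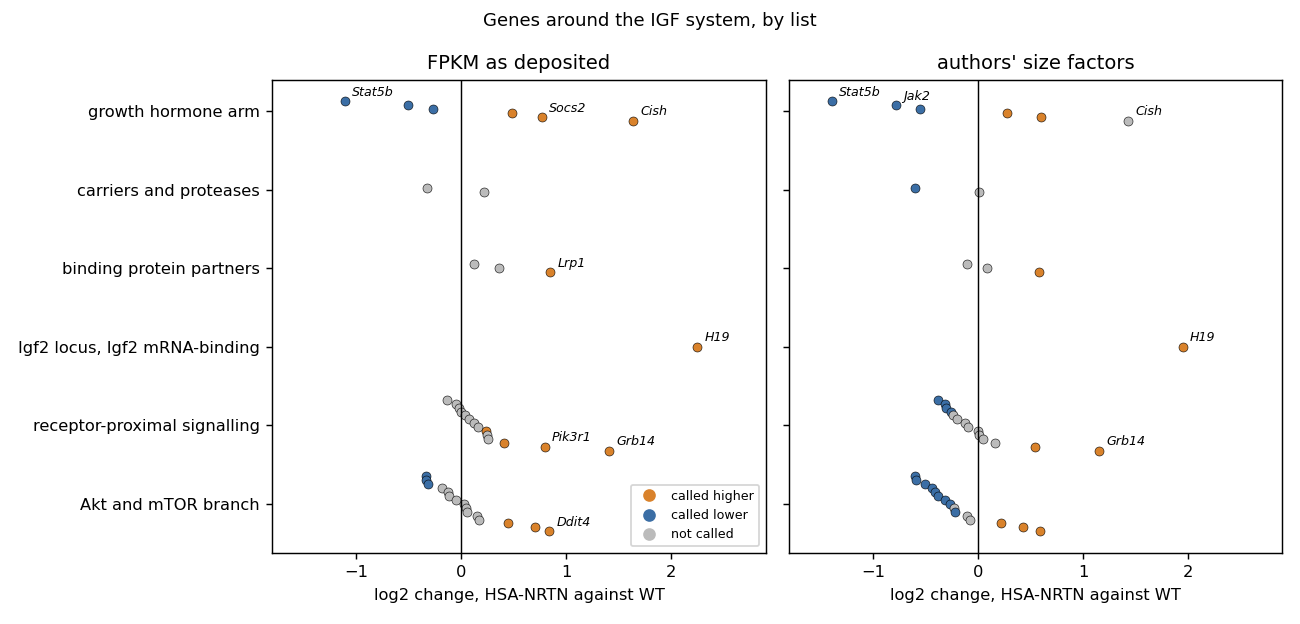
Log2 change (HSA-NRTN against WT) of each tested gene in 6 lists around the IGF system, with FPKM as deposited (left) and with the authors' size factors (right); orange points are called higher, blue points lower and grey points not called. H19 lies farthest to the right and Stat5b farthest to the left in both panels.

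Cell type markers moved with several of these genes. In bulk RNA fewer cells of a type and less RNA per cell cannot be told apart. The fibroblast list (5 genes, 5 called higher) summed to 213 to 246 FPKM in WT and 373 to 448 FPKM in HSA-NRTN. The macrophage list (5 of 5 higher) summed to 21.4 to 29.0 FPKM and 90.0 to 99.0 FPKM, and the endothelial list (5 of 5 higher) to 67.7 to 74.7 FPKM and 92.3 to 114 FPKM. With the size factors 4, 5 and 2 genes of these lists were called higher. These counts stand beside 41.6% of all genes called higher with FPKM and 20.8% with the size factors. The sums of these 3 lists were higher in every HSA-NRTN library than in any WT library under either scaling. Fibroblasts and macrophages are known sources of Igf1, and endothelium of Igfbp7; their part in the rise of both genes was not tested.

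Smooth muscle and pericyte markers (5 of 5 higher, 1 with the size factors) summed to 112 to 132 FPKM in WT and 147 to 184 FPKM in HSA-NRTN, and Schwann cell markers (4 of 4 tested higher, 2 with the size factors) to 21.4 to 24.9 FPKM and 31.3 to 41.0 FPKM. Adipocyte markers (4 of 5 higher, 2 higher and 1 lower with the size factors) summed to 56.3 to 76.9 FPKM and 149 to 305 FPKM. Satellite cell markers (2 of 3 tested higher, 1 with the size factors) summed to 4.17 to 5.55 FPKM and 5.56 to 7.14 FPKM. The smooth muscle and satellite cell sums overlapped between groups with the size factors. No marker was at 0 in all 6 libraries. Of the fibre markers 3 of 5 fell and none rose (4 fell with the size factors). The counts of these lists stand beside 41.6% of all genes called higher and 11.7% lower with FPKM. With the size factors the shares of all genes were 20.8% and 30.1%.

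Slow muscle markers, which also mark the neighbouring soleus, summed to 153, 260 and 408 FPKM in WT 1, 2 and 3 and to 345, 315 and 258 FPKM in HSA-NRTN. Of these 7 genes 1 rose and 1 fell with FPKM, and 0 rose and 3 fell with the size factors. As shares these are 14.3% and 14.3%, and 0% and 42.9%. Among the WT libraries slow muscle markers were highest in WT 3, as was Igf1 (4.41 FPKM, against 3.66 in WT 1 and 2.89 in WT 2). The other libraries did not share an order: slow muscle markers were lowest in WT 1 and Igf1 in WT 2. In HSA-NRTN 1, 2 and 3 the markers ran downward while Igf1 ran upward (5.49, 6.05 and 6.53 FPKM). Igfbp5 was lowest in WT 2, and Igfbp7 differed by less than 3 FPKM over the WT libraries. Whether slow muscle content bears on these levels was not tested. In HSA-NRTN 1 the levels of Igf1, Igf1r, Igf2r, Igfbp3, Igfbp4, Igfbp6 and Igfbp7 were the lowest of their group. Reads of the mitochondrial genome made up 15.3% of that library, against 12.7% and 13.9% in HSA-NRTN 2 and 3 and 9.22% to 9.55% in WT. With FPKM rescaled to the reads of nuclear genes, a setting added after seeing the data, 5 of the 8 genes were called higher (limma). In that setting 5531 of 11081 tested genes were called higher and 1018 lower, with a median change (log2) of 0.25. The 5 were Igf1, Igfbp4, Igfbp7, Igf2r (log2 change 0.27, limma, adjusted p = 0.0488) and Igfbp6 (0.39, limma, adjusted p = 0.0308). Igfbp5 was called lower (-0.36, limma, adjusted p = 0.0393).

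**Figure D5:**
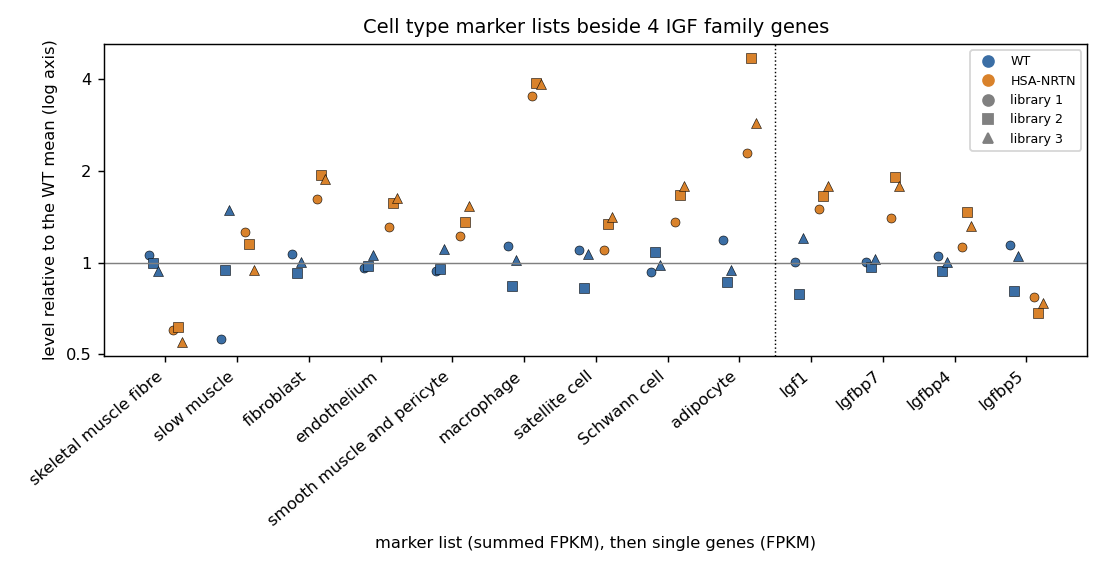
Summed FPKM of 9 marker lists and FPKM of 4 IGF family genes in each library, divided by the WT mean (log axis); blue is WT, orange HSA-NRTN, and symbols mark the library number. Macrophage and adipocyte lists stand highest in HSA-NRTN, fibre markers are lower there, and slow muscle markers are spread over the WT libraries.

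Among the other list genes, those nearest in pattern to each called gene were found by the root mean square difference of log2(FPKM + 1) over 6 libraries, each gene centred on its own mean, out of 92 candidates. Nearest to Igf1 were Acta2 (0.0801) and Akt1 (0.104), and nearest to Igfbp7 were Akt1 (0.0676) and Pdgfra (0.0752). Nearest to Igfbp4 were Cspg4 (0.0492) and Shc1 (0.0603). Igfbp5 had no close match: Rps6kb1 at 0.167 and Ghr at 0.173 were nearest, beside its own spread of 0.271 around its mean. These are descriptions over libraries that fall into 2 groups.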

How the data were processed

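Total RNA from snap-frozen muscle was extracted with TRI reagent, and libraries were made with an Illumina TruSeq RNA kit, per the labels' protocols. HISAT2, HTSeq, DESeq2, Cufflinks and Cuffdiff with GRCm38 are named in the submitters' processing notes; their versions and roles were not given in the sources used here. The deposited table holds FPKM per library, the authors' mean signal (reads divided by size factors), the authors' log2 fold changes with errors, a test score and the authors' p-values. The unit was inferred from values: with the gene lengths, 100% of 127467 values above 0 gave whole reads within 0.01 read.

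The test was limma 3.58.1 (R 4.3.3) on log2(FPKM + 1), with the prior variance following the mean level, for genes averaging 1 FPKM or more, without a block. It was also run on simulated reads in which few genes changed, as many up as down. That simulation held no shift in composition, so it does not bear on the choice between scalings. The rule named all 10 members, per pathway list the called genes of lowest p (3 at most), and the 2 nearest genes per called member. A gene that the rule named is not reported here. Genes and lists were chosen with earlier results of these data known. Within a group, libraries differed beyond sampling noise (chi-square divided by its degrees of freedom, 12.1 to 33.5). Alternatives changed scaling, pseudocount, filter, test, block and libraries.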

Additional observations from a re-analysis of the deposited data

How the results depend on the processing

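Values of the 8 tested genes were recomputed 110 times over the alternatives: 87 kept their direction and side of the threshold, 9 lost the call, 5 gained one and 9 changed sign, 1 of which (Igfbp3 with the authors' size factors) also gained a call. Igf1 and Igfbp7 kept both in each alternative that tested them. With the authors' size factors 2 family genes were called lower instead of 1, and 17 genes around the system instead of 6 (11 with quantile normalization). With no filter 0 family genes were called lower by limma, and 1 was lower at an unadjusted p under 0.05. Limma-voom was run only with the filter of 1 FPKM, where it called 1 lower. With FPKM of nuclear genes, added after seeing the data, 5 were called higher instead of 3. Among all genes 5531 of 11081 were then called higher, against 4476 of 10755. With 1 library left out, 2 (without WT 2, HSA-NRTN 2 or HSA-NRTN 3) to 5 (without HSA-NRTN 1) were called higher, and 0 (without WT 1, WT 3 or HSA-NRTN 2) to 1 lower. Over these fits 3560 to 4600 of 10755 genes were called higher, the most without HSA-NRTN 1, and 1007 to 1194 lower.

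The changes of sign were in genes not called with FPKM: Igf1r was at -0.087 with the size factors and -0.19 with quantile normalization, Igf2r at -0.078 with the size factors, and Igfbp3 at -0.25 and -0.16, and from -0.025 to 0.080 with 1 library left out. The cause was not tested beyond the construction of these scalings, which shift the libraries.

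The replicate block (limma) called 3 family genes higher and 1 lower, as without it, and 4309 genes higher and 1212 lower among all genes, against 4476 and 1255. Same-numbered libraries correlated at 0.08, -0.17 and 0.19 in their deviations from the group means, so the numbers were not taken as pairs, and not every library correlated best with its own number. Depth limits Igfbp2, which was counted in 1 to 6 reads per library. For scale, 3 reads in a gene of 1 kilobase correspond to 0.0597 to 0.109 FPKM, counting error only. Igf2, with 5723 exon bases, was counted in 24 to 160 reads.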
